A study of Mus musculus with 22 samples.

Results

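The 7 genes described here, *Ccl2*, *Ccl7*, *Ccl8*, *Ccl11*, *Ccl12*, *Ccl17* and *Ccl20*, encode CC chemokines and were taken by symbol from a table of 55401 gene identifiers. All 7 were found in the table. CC chemokines are small secreted proteins that bind receptors on leukocytes and draw these cells along a gradient. *Ccl2*, *Ccl7*, *Ccl8* and *Ccl12* encode the monocyte chemoattractant proteins, which fibroblasts, endothelial cells and macrophages release during inflammation. The products of *Ccl2*, *Ccl7* and *Ccl12* act mainly through the receptor CCR2. *Ccl11* encodes eotaxin, a stromal product that attracts eosinophils through CCR3, *Ccl17* encodes a T cell attractant of dendritic cells and macrophages that binds CCR4, and *Ccl20* encodes the ligand of CCR6. Chemokines of this kind are known components of the senescence-associated secretory phenotype (SASP).

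RNA was sequenced from mouse embryonic fibroblasts (MEFs), primary cultures of minced embryo without head and viscera. The cultures were passaged serially in atmospheric oxygen until the wild-type (WT) cells ceased to divide. Passage 3 is called early and passage 8 late. The *S6K1* set comprised 4 early WT, 4 late WT and 3 late *S6K1* KO libraries, and the *S6K1/S6K2* set comprised 4 early WT, 4 late WT and 3 late *S6K1/S6K2* DKO libraries, 22 in all. The comparisons ask how passage changed the level of each chemokine in WT cells and whether loss of the S6 kinases changed it in late cells. Both deletions were inherited and present in every cell type of the culture. The paper reports that *S6K1* KO and *S6K1/S6K2* DKO cells stopped dividing earlier than WT cells. Late groups were thus matched by passage and not by time since arrest. WT and KO embryos of the *S6K1* set were littermates, whereas the WT controls of the DKO embryos came from other mothers, of an earlier breeding stage, so DKO genotype and litter cannot be told apart. Neither the labels nor the methods say which libraries share an embryo or a mother, so each library was taken as 1 replicate and the *P* values measure the spread between libraries.

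Total counts were 10742454 to 17314832 per library. *Rps6kb1*, which encodes S6K1, was at 63.5 ± 9.15 CPM (counts scaled to library size, SD, n = 4) in late WT and 20 ± 5.06 CPM (n = 3) in late KO cells, and *Rps6kb2*, which encodes S6K2, was at 13.2 ± 2.47 and 0.811 ± 0.478 CPM in late WT and late DKO cells. The 10 fibroblast markers summed to 19400 CPM or more in every library, whereas the 8 lymphocyte and granulocyte markers summed to at most 0.614 CPM, with *S100a9* at 0 counts in all libraries. Of the fibroblast markers 2, *Col1a1* and *Col1a2*, passed as lower with passage in each set, as did 3 of 6 epithelial and mesothelial markers tested in each set and 1 and 0 of 3 endothelial markers. Among all genes tested, 12.9% and 13.2% passed with passage in the 2 sets. The cultures also held macrophage transcripts. The 19 macrophage markers summed to 515 to 1106 CPM in early WT and 5420 to 11281 CPM in late WT cells of the *S6K1* set, 3610 to 4906 CPM in late KO cells, 611 to 2015 and 7547 to 12936 CPM in early and late WT cells of the *S6K1/S6K2* set, and 953 to 3491 CPM in late DKO cells. Macrophages can express several of the 7 chemokines, and in bulk RNA fewer cells of a type and less RNA per cell cannot be told apart.

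A cluster holds 5 of the genes, which are neighbours. In the mouse build GRCm38.p6 (mm10), *Ccl2* (chr11:82035577-82037452), *Ccl7* (chr11:82045712-82047525), *Ccl11* (chr11:82057832-82062955), *Ccl12* (chr11:82101845-82103399) and *Ccl8* (chr11:82115185-82116799) lie within 81.2 kb of chromosome 11, and *Ccl12* and *Ccl8* are 11.8 kb apart. *Ccl17* (chr8:94809380-94812038) and *Ccl20* (chr1:83116766-83119167) stand alone. Per kilobase of exon, *Ccl7* was the most abundant of the 7 across the 22 libraries, at a mean of 208 CPM per kb, followed by *Ccl2* at 100 and *Ccl8* at 24.4 CPM per kb. *Ccl12*, *Ccl11* and *Ccl20* averaged 7.52, 5.87 and 4.49 CPM per kb, and their order was not fixed: *Ccl12* was at 12.5 and *Ccl11* at 1.88 CPM per kb in early WT cells of the *S6K1* set, against 8.93 and 14.9 CPM per kb in late WT cells. *Ccl17* was the lowest, at 0.875 CPM per kb. *Ccl2* and *Ccl7* together made up 86.2 to 96.9% of the summed CPM of the 7 genes in each library.

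**Figure D1:**
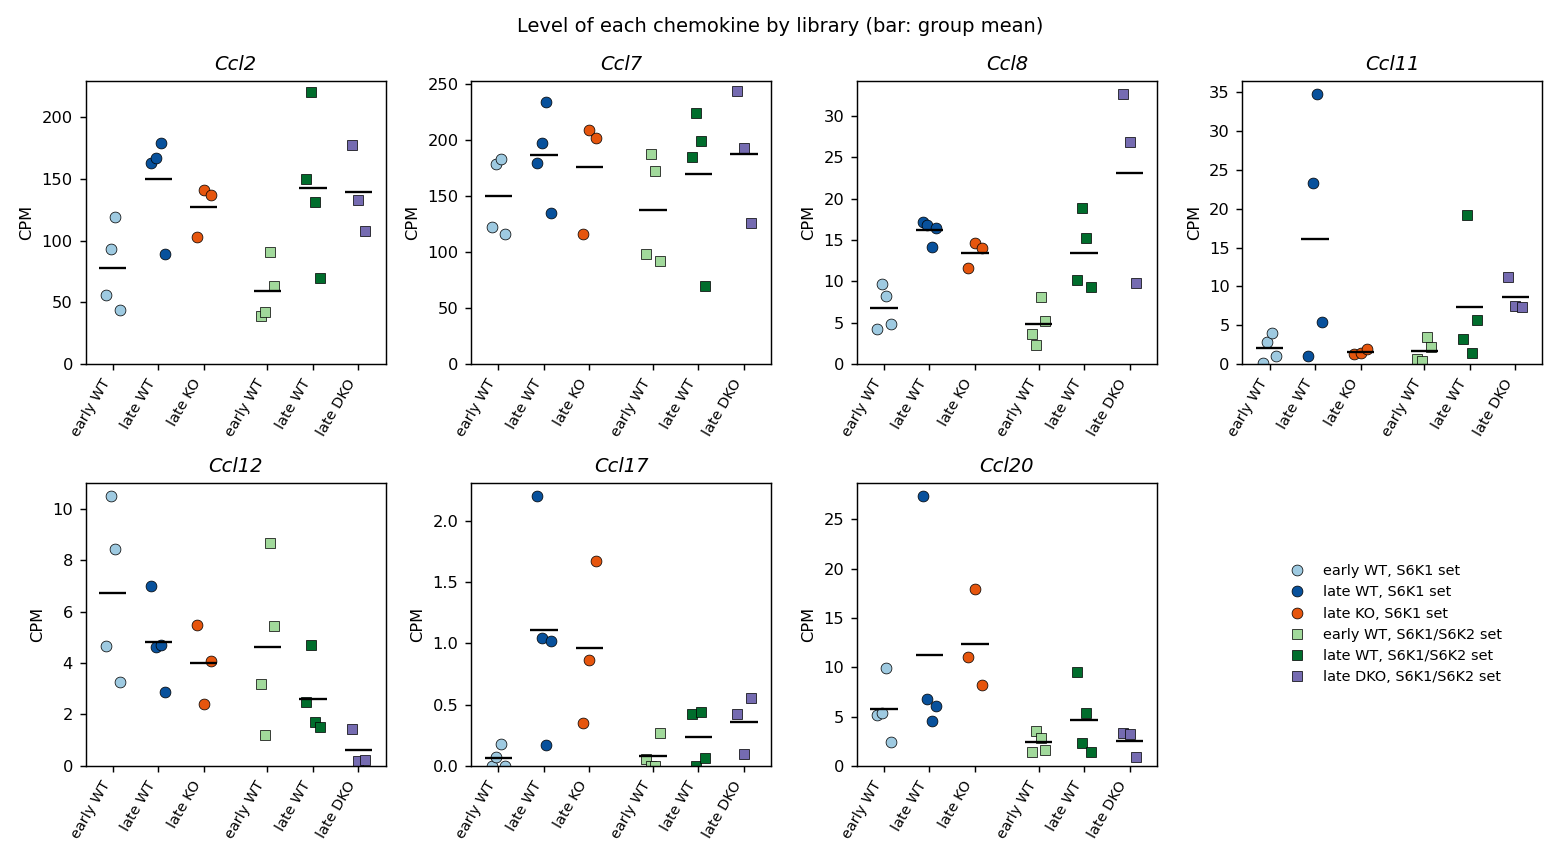
Level of each of the 7 chemokines (vertical axis, CPM, linear scale, different range for each gene) in the 22 libraries, by group. Points are libraries, circles for the *S6K1* set and squares for the *S6K1/S6K2* set, and bars are group means. *Ccl8* separates early from late WT libraries in both sets, *Ccl11* spreads from 1.10 to 34.7 CPM within late WT cells of the *S6K1* set, and *Ccl12* is at 1.43 CPM or less in late DKO cells.

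Late WT cells expressed more of several of these chemokines than early WT cells. In the *S6K1* set, 3 of the 7 genes passed a false discovery rate of 5% in edgeR's quasi-likelihood test, *Ccl8*, *Ccl17* and *Ccl11*, all higher in late cells. Over all genes tested, 12.9% passed in this comparison and 6.96% passed as higher in late cells. *Ccl17* passed the filter on low counts only through the late groups, where it was higher, so its call adds nothing to the count, and 2 of the other 6 genes passed. The *S6K1/S6K2* set gave 2 of 6 genes tested, *Ccl2* and *Ccl8*, both higher in late cells, where 13.2% of all genes passed and 8.28% passed as higher. *Ccl17* was too low to be tested there. The median log2 fold change of the genes tested was 0.94 and 1.15 in the 2 sets, with all-gene medians of −0.038 and 0.013.

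*Ccl8* was the chemokine with the firmest change with passage. Early WT libraries of the *S6K1* set were at 4.29, 9.72, 8.21 and 4.84 CPM, and late WT libraries at 17.2, 16.8, 14.2 and 16.5 CPM. The early and late ranges did not overlap, and the late libraries lay close together. The log2 fold change was 1.25 ± 0.24 (SE; fold 2.38, edgeR adjusted *P* = 0.00561), and *Ccl8* still passed when any 1 library was left out, with adjusted *P* values of 0.00314 to 0.0163. The *S6K1/S6K2* set had early WT libraries at 3.65, 2.32, 8.11 and 5.16 CPM and late WT libraries at 10.2, 18.9, 15.2 and 9.33 CPM, again without overlap. There the log2 fold change was 1.51 ± 0.43 (fold 2.84, edgeR adjusted *P* = 0.0423). That call was lost without early library 1, 2 or 4 or late library 2 or 3, with adjusted *P* values of 0.065 to 0.127, while the log2 fold change stayed between 1.27 and 1.88, and also with no filter on low counts (0.131) and with Y-linked expression, a measure of embryo sex, as a covariate (0.0731). Macrophage markers moved with *Ccl8* in both sets, with 19 of 19 and 18 of 19 passing as higher in late WT cells and median log2 fold changes of 2.96 and 2.51. Their part in the rise of *Ccl8* was not tested.

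*Ccl2*, which encodes the main ligand of CCR2, was at 55.9, 93.3, 119 and 43.9 CPM in early WT and 163, 167, 179 and 88.8 CPM in late WT libraries of the *S6K1* set. Late libraries were higher on average, but late library 4 lay within the early range. The log2 fold change of 0.94 ± 0.30 missed the threshold (edgeR adjusted *P* = 0.0625) and passed it without early library 3 or late library 4 (adjusted *P* = 0.0198 and 0.0309). DESeq2 gave an adjusted *P* of 0.0179, and the range over all alternatives was 0.0179 to 0.134. In its counterpart, the *S6K1/S6K2* set, early WT libraries were at 38.8, 42.6, 90.8 and 63.5 CPM and late WT libraries at 150, 220, 131 and 69.6 CPM. As in the other set, all late libraries but 1 exceeded every early library. *Ccl2* rose by 1.31 ± 0.35 on the log2 scale (fold 2.47, edgeR adjusted *P* = 0.0328), a call that was lost without early library 1, 2 or 4 or late library 2 or 3 (adjusted *P* of 0.0501 to 0.106), with no filter on low counts (0.121) and with the Y-linked covariate (0.0614).

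*Ccl7*, the closest neighbour of *Ccl2* and a ligand of CCR1, CCR2 and CCR3, was high before and after passage. Early WT libraries of the *S6K1* set ranged from 116 to 183 CPM (median 151) and late WT libraries from 135 to 234 CPM (median 188). The log2 fold change was 0.31 ± 0.24, with a 95% interval (normal approximation) of −0.16 to 0.77 (edgeR adjusted *P* = 0.433). Levels in the *S6K1/S6K2* set were 91.7 to 188 CPM in early and 69.6 to 224 CPM in late WT libraries, with a log2 fold change of 0.33 ± 0.36 and an interval of −0.37 to 1.03 (edgeR adjusted *P* = 0.566). Both intervals hold no change as well as a rise, of up to 0.77 and 1.03 on the log2 scale. The ratio of *Ccl2* to *Ccl7* CPM was 0.379 to 0.646 in early and 0.66 to 0.908 in late WT libraries of the *S6K1* set, and 0.226 to 0.693 and 0.657 to 1.00 in those of the *S6K1/S6K2* set.

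*Ccl12*, a CCR2 ligand of mice that lies next to *Ccl8*, did not pass with passage in either set. Early WT libraries of the *S6K1* set were at 4.66, 10.5, 8.44 and 3.25 CPM and late WT libraries at 6.98, 4.64, 4.69 and 2.89 CPM. The log2 fold change was −0.49 ± 0.39, with an interval of −1.26 to 0.28 (edgeR adjusted *P* = 0.457). The other set had early WT libraries at 3.20, 1.22, 8.69 and 5.43 CPM and late WT libraries at 2.47, 4.70, 1.69 and 1.53 CPM, with a log2 fold change of −0.80 ± 0.63 (interval −2.03 to 0.43, edgeR adjusted *P* = 0.416). Early and late ranges overlapped in both sets. Within single libraries, the ratio of *Ccl8* to *Ccl12* CPM was 0.92 to 1.49 in early and 2.46 to 5.71 in late WT cells of the *S6K1* set, and 0.933 to 1.90 and 4.01 to 8.96 in those of the *S6K1/S6K2* set. It was 2.13 to 6.08 in late KO and 22.8 to 138 in late DKO cells, where library counts of *Ccl12* were 2 to 17. This ratio was chosen after the values were seen and was not tested.

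The sequences just upstream of *Ccl8* and *Ccl12* are shown because these are neighbours of which one passed the test with passage in both sets and the other did not. Each run is the 250 bases before the RefSeq gene start on the plus strand of GRCm38.p6, with the letters TATAAA in capitals, chr11:82114935-82115184 for *Ccl8* and chr11:82101595-82101844 for *Ccl12*.
Ccl8: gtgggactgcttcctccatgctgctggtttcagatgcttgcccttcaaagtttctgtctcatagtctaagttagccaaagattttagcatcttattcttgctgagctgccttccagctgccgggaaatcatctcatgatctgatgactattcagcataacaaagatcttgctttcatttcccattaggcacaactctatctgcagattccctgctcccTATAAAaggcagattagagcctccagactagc
Ccl12: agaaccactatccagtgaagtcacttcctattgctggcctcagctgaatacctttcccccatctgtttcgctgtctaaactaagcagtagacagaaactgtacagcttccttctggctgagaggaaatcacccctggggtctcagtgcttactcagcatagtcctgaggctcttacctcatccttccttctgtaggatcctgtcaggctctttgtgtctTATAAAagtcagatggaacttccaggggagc
TATAAA began 32 bases upstream of the start in *Ccl8* and 31 bases upstream in *Ccl12*, and 12.4% of 32851 mouse promoter windows of this length hold it on either strand. Neither window held a match to the other motifs searched on both strands, which were the NF-κB motif (7.25% of windows), the AP-1 letters TGANTCA (6.75%), the C/EBP letters TTNNGNAA (36.8%), the STAT letters TTCNNNGAA (7.02%), the STAT6 motif (5.85%) and the interferon-stimulated response element (2.98%). A missing match says only that these letters are not in the window. The table of promoters had entries for *Ccl8*, *Ccl12*, *Ccl17* and *Ccl20*.

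**Figure D2:**
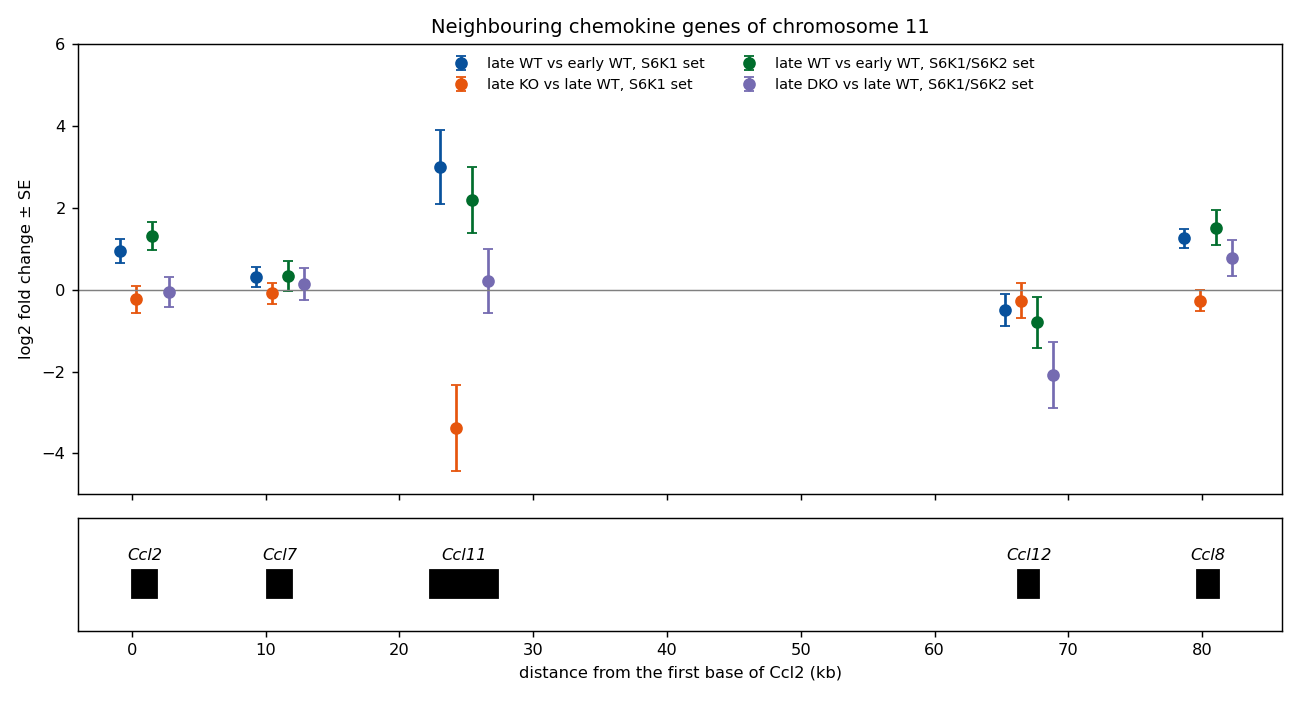
Log2 fold change ± SE (vertical axis) of the chromosome 11 chemokine genes against distance from the first base of *Ccl2* (horizontal axis, kb), with the genes drawn to scale below. Points are the 4 comparisons, set slightly apart at each gene. *Ccl8*, at one end of the cluster, was higher in late than in early WT cells of both sets. The values of its neighbour *Ccl12* lie below 0 and did not pass the test.

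*Ccl11* varied widely within single groups. Early WT libraries of the *S6K1* set were at 0.214, 2.84, 4.02 and 1.06 CPM, late WT libraries at 1.10, 23.3, 34.7 and 5.43 CPM, and late KO libraries at 1.33, 1.47 and 1.89 CPM. Late WT libraries 2 and 3 stood far above the rest, and late WT library 1 was lower than every KO library. With passage the log2 fold change was 2.99 ± 0.91 (fold 7.95, edgeR adjusted *P* = 0.0497). That call sat at the threshold and was lost without early library 1, 2 or 4 or late library 2 or 3 (adjusted *P* of 0.0765 to 0.142), with no filter on low counts (0.2) and in a fit of the 2 groups (0.0923). Late KO cells differed from late WT cells by −3.38 ± 1.05 on the log2 scale, which did not pass (edgeR adjusted *P* = 0.299, unadjusted *P* = 0.00725). In the other set, early WT libraries were at 0.663, 0.367, 3.44 and 2.18 CPM, late WT libraries at 3.26, 19.2, 1.47 and 5.62 CPM and late DKO libraries at 11.2, 7.45 and 7.35 CPM. The values with passage (log2 fold change 2.19 ± 0.80, edgeR adjusted *P* = 0.0921) and with DKO (0.21 ± 0.79, adjusted *P* = 0.925) did not pass, and without late WT library 2 the former was 1.08. The effect of KO and that of DKO differed by 3.60 ± 1.35, which also did not pass (edgeR adjusted *P* = 0.36).

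The 5 genes most like *Ccl11* over the 22 libraries, by Pearson's *r* of log2 CPM, were *Spry1* (0.93), *Ctnna2* (0.93), *Dpt* (0.92), *Dcn* (0.91) and *Id4* (0.91). *Dcn* encodes the matrix proteoglycan decorin and *Dpt* encodes dermatopontin, both extracellular matrix proteins of fibroblasts. With group means removed, *r* was 0.89 for *Dcn* and 0.92 for *Dpt*. *Dcn* was highest, at 9.99 and 9.17 log2 CPM, in the late WT libraries 2 and 3 of the *S6K1* set that were also highest in *Ccl11*, and at 6.46 log2 CPM in late WT library 1. The 19 macrophage markers did not follow this order in the *S6K1* set, with mean log2 CPM of 7.63, 6.48, 7.20 and 6.75 in late WT libraries 1 to 4. In the *S6K1/S6K2* set these means were 6.88, 7.29, 7.16 and 6.55, highest in late WT library 2, which was also highest in *Ccl11*. With group means removed, *r* of *Ccl11* with the macrophage markers was −0.11 in the *S6K1* set and 0.57 in the other. The points share depth and culture, and the 5 nearest genes were selected for their likeness, so their coefficients are a description.

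**Figure D3:**
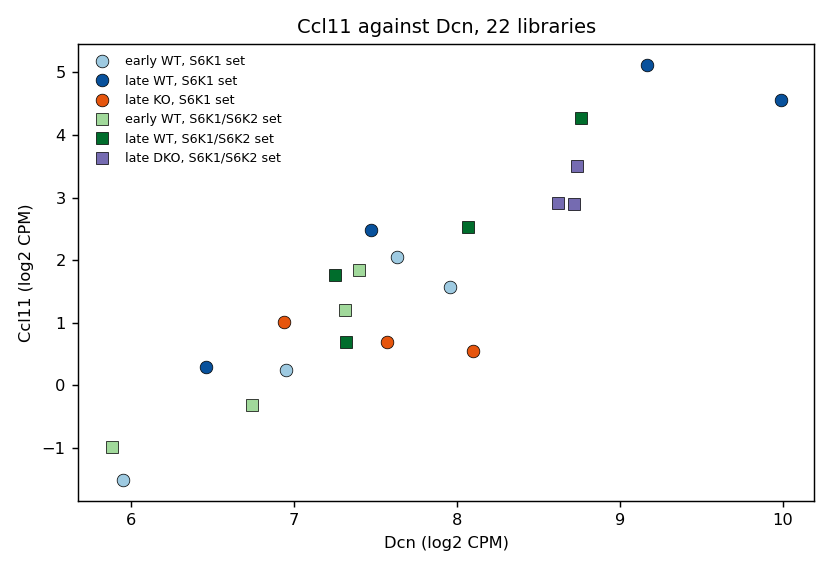
*Ccl11* against *Dcn*, a fibroblast matrix gene, in the 22 libraries (both axes log2 CPM). Each point is a library, coloured by group. Libraries with high *Dcn* had high *Ccl11*, and the 2 highest libraries for *Ccl11* were late WT libraries 2 and 3 of the *S6K1* set, at 9.99 and 9.17 log2 CPM of *Dcn*. Late KO libraries 1 and 2, at 8.10 and 7.57 log2 CPM of *Dcn*, lie below the WT libraries of most similar *Dcn*, and late KO library 3, at 6.94, lies above the WT library nearest to it in *Dcn*.

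*Ccl20*, an epithelial and stromal chemokine that attracts cells bearing CCR6, was at 5.20, 5.38, 9.89 and 2.46 CPM in early WT, 27.4, 6.79, 4.57 and 6.11 CPM in late WT and 11, 17.9 and 8.25 CPM in late KO libraries of the *S6K1* set. A single late WT library, replicate 1, was above the other 21 libraries. The log2 fold change with passage was 0.94 ± 0.56 (edgeR adjusted *P* = 0.302), and 0.01 without that library. With KO it was 0.15 ± 0.59 (edgeR adjusted *P* = 0.949), and −0.22 to 1.09 when 1 library was left out, without a call. Every late KO library lay above all late WT libraries of this set except replicate 1. Early WT, late WT and DKO libraries of the *S6K1/S6K2* set were at 1.44, 3.55, 2.85 and 1.65 CPM, at 9.48, 2.28, 5.38 and 1.41 CPM, and at 3.38, 3.19 and 0.927 CPM. All ranges overlapped there, and neither passage (1.00 ± 0.58, edgeR adjusted *P* = 0.268) nor DKO (−0.93 ± 0.64, adjusted *P* = 0.496) passed. The upstream window of *Ccl20*, chr1:83116516-83116765, is shown because it is the only one of the 4 promoters found that held a match to the NF-κB motif, in capitals, 80 to 71 bases before the start.
Ccl20: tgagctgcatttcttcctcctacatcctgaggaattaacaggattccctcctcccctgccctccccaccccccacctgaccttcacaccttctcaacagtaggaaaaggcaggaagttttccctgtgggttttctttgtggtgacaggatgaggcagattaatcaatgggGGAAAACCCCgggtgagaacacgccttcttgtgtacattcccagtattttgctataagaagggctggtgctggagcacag
The match is a description of the letters, not a site of binding.

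*Ccl17* was close to the limit of detection. Counts were 0, 1, 3 and 0 in early WT, 28, 13, 3 and 12 in late WT and 5, 14 and 22 in late KO libraries of the *S6K1* set. Summed over libraries, 56 counts in late against 4 in early WT cells gave a ratio of 15.5 after scaling to library size, with a 95% interval of 5.72 to 58.8 that covers counting error only. The gene passed the filter on low counts only through the late groups and was not tested when only early and late WT cells were fitted, so its test is given as a description. edgeR gave an adjusted *P* of 0.0225, and the call was lost without early library 2 or 4 or late library 1 (adjusted *P* of 0.0542 to 0.0614). The *S6K1/S6K2* set had 1, 0, 0 and 4 counts in early WT, 7, 0, 6 and 1 in late WT and 5, 1 and 9 in DKO libraries, which was too few to test. Of the 8 dendritic cell markers, 5 or fewer exceeded 3 counts in any group, and none of the 3 tested passed with passage in the *S6K1* set.

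**Figure D4:**
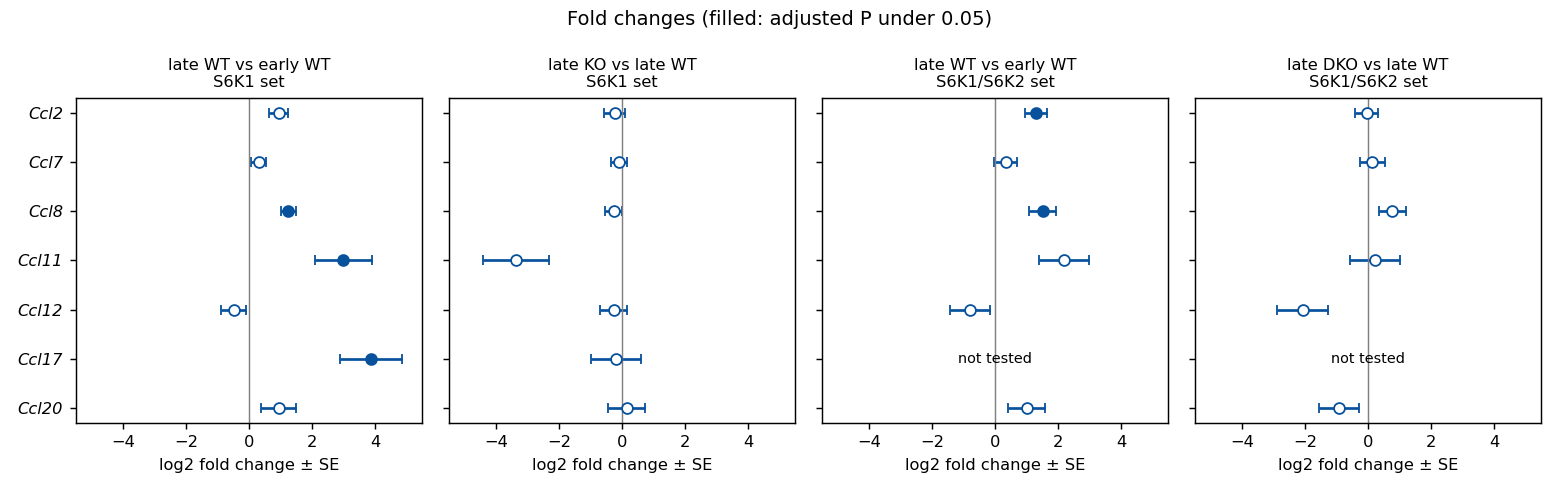
Log2 fold change ± SE (horizontal axis) of each chemokine in the 4 comparisons (panels). Filled points passed an adjusted *P* of 0.05 in edgeR, and *Ccl17* was not tested in the *S6K1/S6K2* set. Both passage panels hold filled points to the right of 0, and the panels for KO and DKO hold none.

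Loss of S6K1 left no chemokine of the 7 past the threshold. Late KO and late WT cells of the *S6K1* set gave 0 of 7 calls in edgeR, where 0.0425% of all genes passed, and 1 gene, *Ccl11*, at an unadjusted *P* under 0.05. DESeq2 also gave 0. Late KO libraries were at 103, 141 and 137 CPM for *Ccl2*, at 11.6, 14.6 and 14.0 CPM for *Ccl8*, at 116, 209 and 202 CPM for *Ccl7* and at 5.47, 2.40 and 4.09 CPM for *Ccl12*. For all 4 genes the KO and late WT ranges overlapped, for *Ccl8* only between the highest KO library and the lowest late WT library. The log2 fold changes of *Ccl2* (−0.24, interval −0.88 to 0.40) and *Ccl8* (−0.27, interval −0.78 to 0.24) do not separate a moderate fall from no change. All 3 KO libraries, but 1 of 4 late WT libraries of this set, had Y-linked transcripts, so embryo sex moved with genotype. When Y-linked expression was added to the model, 0 of the 7 genes passed.

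In the DKO comparison, too, 0 of 6 genes tested passed in edgeR, where 4.78% of all genes passed, and DESeq2 gave 0. *Ccl12* was the only one with an unadjusted *P* under 0.05. Its DKO libraries were at 1.43, 0.194 and 0.247 CPM, all below the lowest late WT library (1.53 CPM). The log2 fold change was −2.08 ± 0.80 (edgeR adjusted *P* = 0.184, unadjusted *P* = 0.0236), and −3.49 without DKO library 1. Over all fits that left out 1 library it was −3.49 to −1.62, without a call (edgeR adjusted *P* of 0.0604 to 0.469). The DKO libraries for *Ccl8* were at 32.7, 26.8 and 9.76 CPM, and 2 of them exceeded all late WT libraries, with a log2 fold change of 0.77 ± 0.44 (interval −0.10 to 1.64, edgeR adjusted *P* = 0.403). *Ccl2* was at 177, 133 and 108 CPM and *Ccl7* at 244, 193 and 126 CPM, with log2 fold changes of −0.05 (interval −0.78 to 0.67) and 0.13 (interval −0.62 to 0.89). Y-linked transcripts were present in 3 of 4 late WT and 1 of 3 DKO libraries, so embryo sex moved with genotype here too. With the Y-linked covariate 0 of the 6 genes passed, and the log2 fold changes were −0.28 for *Ccl20*, which was −0.93 without it, 0.64 for *Ccl7* and 0.23 for *Ccl2*. The late WT libraries used here are also those of the passage comparison, so an extreme late WT library enters both.

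Macrophage markers fell in the DKO cells while *Ccl2*, *Ccl7* and *Ccl8* stayed within or above the late WT range. Of the 19 markers, 18 passed as lower, with a median log2 fold change of −2.40, among them *Cd68* (−2.40 ± 0.35) and *Mrc1* (−4.03 ± 0.60). In late KO cells 0 of 19 passed, with a median of −0.87. The shares of all genes that passed were 4.78% with DKO and 0.0425% with KO. DKO library 2 had 1074 CPM of macrophage markers, within the early WT range, and 26.8 CPM of *Ccl8*, above every WT library of either set. DKO library 1 had the most macrophage transcript of the 3, at 3491 CPM. It also had the most *Ccl12*, *Ccl8*, *Ccl2* and *Ccl7* of the 3, at 1.43, 32.7, 177 and 244 CPM. DKO library 3 had the least macrophage transcript, at 953 CPM, and the least *Ccl8*, at 9.76 CPM, with *Ccl12* at 0.247 CPM. The part of macrophages in these levels was not tested.

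The effects of passage in the 2 sets differed for 0 of the 7 genes in edgeR, where 0.712% of all genes passed, with 0 at an unadjusted *P* under 0.05. DESeq2 also gave 0 of the 7. The difference was 0.22 ± 0.51 for *Ccl8* and 0.34 ± 0.48 for *Ccl2* on the log2 scale, with intervals of −0.78 to 1.22 and −0.61 to 1.28. For the effects of KO and DKO the count in edgeR was also 0 of 7, where 0.00672% of all genes passed, with 1 gene, *Ccl11*, at an unadjusted *P* under 0.05. The count in DESeq2 was 0. The differences were 1.05 ± 0.54 for *Ccl8* and −1.79 ± 0.92 for *Ccl12*, each with an edgeR adjusted *P* of 0.489. For all 7 genes the intervals are wide enough to hold 2-fold differences in at least one of these tests.

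Across libraries of the same group, 4 of the 6 pairs among *Ccl2*, *Ccl7*, *Ccl8* and *Ccl12* varied together. Over 22 libraries with group means removed, 7 of 21 pairs, formed by 6 chemokines and the mean of the macrophage markers, passed a false discovery rate of 5% in a permutation test of Pearson's *r*. *Ccl2* correlated with *Ccl7* (*r* = 0.75, permutation *P* = 0.00135, adjusted *P* = 0.00567; rho = 0.65, *P* = 0.00548, adjusted *P* = 0.0164), *Ccl8* (*r* = 0.71, permutation *P* = 0.0013, adjusted *P* = 0.00567; rho = 0.76, *P* = 0.00232, adjusted *P* = 0.0121) and *Ccl12* (*r* = 0.72, permutation *P* = 0.00088, adjusted *P* = 0.00567; rho = 0.78, *P* = 0.00034, adjusted *P* = 0.00714). *Ccl8* correlated with *Ccl12* (*r* = 0.71, permutation *P* = 0.01, adjusted *P* = 0.03; rho = 0.64, *P* = 0.0153, adjusted *P* = 0.0369). Without the 2 libraries farthest from the median on the first gene, these 4 values of *r* were 0.66, 0.70, 0.70 and 0.65. The coefficients in the *S6K1* set alone were 0.87, 0.67, 0.67 and 0.57 and in the *S6K1/S6K2* set alone 0.70, 0.76, 0.77 and 0.76. *Ccl7* did not pass with *Ccl8* (*r* = 0.48, permutation *P* = 0.0611, adjusted *P* = 0.107; rho = 0.51) or with *Ccl12* (*r* = 0.28, permutation *P* = 0.279, adjusted *P* = 0.322; rho = 0.29). *Ccl8* and *Ccl12* varied in the same direction between cultures of one group, whereas between early and late WT cells *Ccl8* passed as higher and the fold changes of *Ccl12* were below 0 without passing.

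The macrophage markers varied with the same genes. Their mean log2 CPM correlated with *Ccl2* (*r* = 0.68, permutation *P* = 0.00094, adjusted *P* = 0.00567; rho = 0.71, *P* = 0.00199, adjusted *P* = 0.0121), *Ccl8* (*r* = 0.74, permutation *P* = 0.00538, adjusted *P* = 0.0188; rho = 0.74, *P* = 0.00287, adjusted *P* = 0.0121) and *Ccl12* (*r* = 0.80, permutation *P* = 0.00119, adjusted *P* = 0.00567; rho = 0.75, *P* = 0.00196, adjusted *P* = 0.0121). Without 2 libraries *r* was 0.66, 0.64 and 0.69. The values in the *S6K1* set alone were 0.67, 0.49 and 0.52, against 0.71, 0.82 and 0.91 in the other set. *Ccl7* (*r* = 0.33, permutation *P* = 0.183), *Ccl11* (*r* = 0.25, permutation *P* = 0.292) and *Ccl20* (*r* = 0.35, permutation *P* = 0.147) did not pass against the macrophage markers, with rho of 0.42, 0.31 and 0.38. The other pairs did not pass on *r* either, but 2 of them passed on rho in the permutation test. These were *Ccl2* with *Ccl11* (rho = 0.70, permutation *P* = 0.00492, adjusted *P* = 0.0164; *r* = 0.54, adjusted *P* = 0.0732) and *Ccl8* with *Ccl11* (rho = 0.53, permutation *P* = 0.0158, adjusted *P* = 0.0369; *r* = 0.45, adjusted *P* = 0.0533).

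**Figure D5:**
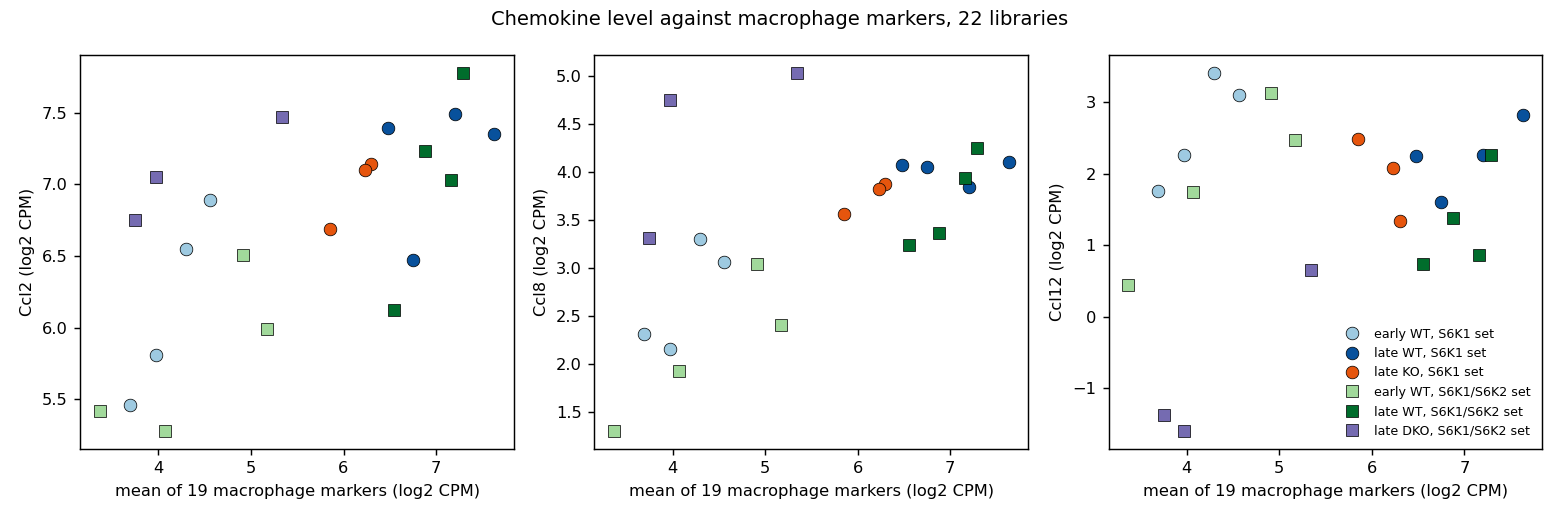
*Ccl2*, *Ccl8* and *Ccl12* (vertical axes, log2 CPM) against the mean of 19 macrophage markers (horizontal axis, log2 CPM) in the 22 libraries, coloured by group. Late DKO libraries, at 3.75 to 5.34 on the horizontal axis, lie above the early WT libraries of like marker level for *Ccl8* and below them for *Ccl12*.

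Of 7 other CC ligands tested, 4 passed as higher in late WT cells of the *S6K1* set and 2 in those of the *S6K1/S6K2* set, and 2 and 4 passed as lower in late KO and late DKO cells. Among all genes tested, 12.9% and 13.2% passed with passage in the 2 sets, and 0.0425% and 4.78% with KO and DKO. *Ccl3* and *Ccl4* encode macrophage inflammatory proteins, and *Ccl6* and *Ccl9* encode myeloid CC ligands. *Ccl4* was at 2.98 ± 1.43 CPM in early WT, 13.9 ± 1.68 CPM in late WT and 2.74 ± 0.406 CPM in late KO cells (log2 fold change with KO −2.34 ± 0.34, edgeR adjusted *P* = 0.0427). *Ccl9* was at 40.9 ± 15.4 CPM in late WT and 9.17 ± 0.446 CPM in late KO cells (−2.16 ± 0.28, edgeR adjusted *P* = 0.0204). With DKO, *Ccl3* fell from 26.3 ± 9.46 to 2.67 ± 0.828 CPM (−3.32 ± 0.45, edgeR adjusted *P* = 0.00401), and *Ccl4*, *Ccl6* and *Ccl9* fell, with log2 fold changes of −3.12, −3.21 and −3.51. None of the 7 chemokines described above passed in either genotype comparison, and the difference between these lists was not tested.

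Receptors for the chemokines were scarce in the cultures. *Ccr6* and *Ccr8* had 0 counts in all 22 libraries, which allows up to 3 counts in each, and *Ccr2*, the main receptor for the products of *Ccl2*, *Ccl7* and *Ccl12*, had at most 5 counts in any library. Of 11 receptors, 4 were tested. *Ccrl2*, an atypical receptor that binds chemerin, rose with passage in the *S6K1/S6K2* set from 0.266 ± 0.0777 to 7.68 ± 1.65 CPM (4.85 ± 0.42, edgeR adjusted *P* = 7.4e-05) and fell with DKO by 1.97 (adjusted *P* = 0.0147). Its passage effect differed between the sets by 3.42 ± 0.63 (edgeR adjusted *P* = 0.00763).

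Among 22 cytokine receptors and transcription factors known to drive these chemokines in fibroblasts, 1 passed as higher and 2 as lower in late WT cells of the *S6K1* set, and 2 and 4 in those of the *S6K1/S6K2* set, with medians of 0.09 and −0.12. Over all genes 12.9% and 13.2% passed, so the first of these shares was near the background and nothing is read from it about the list. *Osmr*, the oncostatin M receptor subunit, fell with passage in both sets, by 0.95 and 0.76 on the log2 scale, and was higher in DKO cells by 0.81 ± 0.15 (edgeR adjusted *P* = 0.0138). *Jun*, an AP-1 subunit, fell by 1.34 in the *S6K1* set and rose by 0.66 ± 0.13 in the other set. Of 13 NF-κB-responsive genes tested, 1 (*Cxcl2*, −2.78 ± 0.44) passed as lower with passage in the *S6K1* set, and 4 as higher in the *S6K1/S6K2* set, where *Cxcl2*, a neutrophil attractant, changed by 4.81 ± 0.53 and *Nfkbia*, the NF-κB inhibitor, by 1.28 ± 0.16. In KO cells 0 and in DKO cells 2, *Cxcl2* and *Tnfaip3*, passed as lower, where 0.0425% and 4.78% of all genes passed. Among 7 mRNA decay factors, *Zfp36*, whose product destabilizes AU-rich transcripts, fell by 1.67 with passage in the *S6K1* set and rose by 2.46 ± 0.19 in the other, and 0 passed with KO or DKO.

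Serum immediate-early genes marked the sets apart. In the *S6K1* set 9 of 14 passed as lower with passage (median log2 fold change −1.31), and in the *S6K1/S6K2* set 11 of 14 passed as higher (median 1.53). The shares of all genes that passed were 12.9% and 13.2%. Their summed CPM was 1415 to 1507 in early and 353 to 412 in late WT libraries of the former, and 348 to 446 and 1071 to 1438 in those of the latter. *Fos* changed by −4.96 ± 0.24 and 5.54 ± 0.28, and the difference of the 2 effects was 10.46 ± 0.38 (edgeR adjusted *P* = 2.28e-13). *Ccl8* was higher in late WT libraries of both sets, and its 2 passage effects differed by 0.22 ± 0.51. The part of the state of these genes at harvest in the level of any chemokine was not tested.

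By the same measure of likeness used for *Ccl11*, the genes nearest to *Ccl8* were *Nudt19* (*r* = 0.93 over 22 libraries), *Gm15050* (0.91) and *Ccpg1* (0.90), and those nearest to *Ccl2* were *Renbp* (0.89), *Arl8b* (0.87) and *Nudt19* (0.86). *Igf2bp3*, which encodes an RNA-binding protein, was nearest to *Ccl12* (0.89), *Med9* to *Ccl20* (0.86) and *Trbc2* to *Ccl7* (0.73). With group means removed these were 0.82 for *Ccl8* with *Nudt19*, 0.75 for *Ccl2* with *Renbp*, 0.76 for *Ccl12* with *Igf2bp3*, 0.76 for *Ccl20* with *Med9* and 0.74 for *Ccl7* with *Trbc2*. *Nudt19* was thus shared by *Ccl2* and *Ccl8*, and no gene was among the 5 nearest to both *Ccl8* and *Ccl12*.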

How the data were processed

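Libraries were stranded mRNA libraries of serially passaged MEFs. The authors deposited raw read counts per gene, without normalization. The study's methods describe mapping to mm9 with TopHat and counting with HTSeq, whereas the submitters' processing notes name CASAVA, STAR 2.7.1a, DESeq2 1.28.1 and mm10. Of 55401 identifiers, 22812 were absent from GENCODE vM1 (mm9), so coordinates were taken from RefSeq for GRCm38.p6. The annotation release and strand setting of the counting are not given in the sources used here, so counts of overlapping genes are uncertain. Symbols were found for 32589 identifiers, carrying 96.98% of the counts.

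Counts were tested in R 4.3.3 with edgeR 4.0.16 (filterByExpr, TMM, robust quasi-likelihood F test) fitted to the 3 groups of each set together, and *P* values were adjusted by Benjamini-Hochberg over all genes tested (threshold 0.05). Standard errors follow from the *F* statistic. Differences between sets were tested as interactions over all 22 libraries (14886 genes). CPM were scaled by TMM over the 22 libraries, log2 CPM used a prior count of 2, and lengths were exon unions of GENCODE vM1. Correlations used deviations from group means and 100000 two-sided permutations within groups, with adjustment over 21 pairs. Scripts were tested on simulated counts. DESeq2 1.42.0, RLE scaling, omission of the filter, fits of 2 or 6 groups, a Y-linked covariate, a prior count of 0.5, each MEF set alone and leaving out each library were the alternatives. Replicates were compared by chi-square per degree of freedom, which was 20.6 to 266 over 30 within-group pairs, so no library repeated another within sampling noise.

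All 7 chemokines were counted in every comparison in which they were tested, but not every fold change is given. At most 4 genes by smallest *P* value were taken from each other list, with the 5 genes nearest by *r*, of which the text names some. The chemokines and the lists (other CC ligands, receptors, inducing receptors and factors, NF-κB-responsive genes, mRNA decay factors, immediate-early genes and markers of cell types) were chosen with earlier results of these data known. Other MEF and liver libraries of the study were not analysed here. Some genes of these lists are not reported here.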

Additional observations from a re-analysis of the deposited data

Results flagged for a closer look

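*Ccl20* in late WT replicate 1 of the *S6K1* set stood apart from its group, at 27.4 CPM where the other 3 libraries were at 4.57 to 6.79 CPM. Its gap to the nearest library was 0.903 of the range of the group. This was 1 of 28 groups of 4 libraries examined, 4 for each chemokine, and chance sets about 1 in 20 such groups apart.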

How the results depend on the processing

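No paired analysis was possible because replicate numbers follow the order of deposition and the labels name no embryo or mother that groups share. Among the alternative values of single fold changes, 549 kept their direction and their side of the threshold, 24 lost and 5 gained a call, and 38 changed sign. The causes of the changes below were not tested, apart from the smaller number of libraries when one is left out.

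The count of all genes for KO moved from 6 to 266 with DESeq2, 43 with no filter, 38 with the Y-linked covariate, 16 in the fit of 6 groups and 2 to 9 without 1 library. Passage in the *S6K1* set gave 3265 with the Y-linked covariate. DESeq2 gave 2845 for passage and 1206 for DKO in the *S6K1/S6K2* set, 222 for the difference between sets in passage and 65 in genotype, which was 3 with no filter and 1 to 5 without 1 library. Leaving out 1 library gave 885 to 2247 for passage and 97 to 783 for DKO in the *S6K1/S6K2* set.

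Of the chemokines, 1 passed with passage in the *S6K1* set in a fit of the 2 groups and 1 to 4 without 1 library, and in the *S6K1/S6K2* set 0 with no filter, 0 with the Y-linked covariate and 0 to 2 without 1 library. *Ccl11* in the *S6K1* set lost its call with no filter and in the fit of the 2 groups, and *Ccl2* and *Ccl8* in the *S6K1/S6K2* set lost theirs with no filter and with the Y-linked covariate. *Ccl8* in the *S6K1* set passed under every alternative run. In the *S6K1* set alone 1 pair of 21 passed as correlated, and *r* of *Ccl11* with the macrophage markers was −0.11, against 0.57 in the *S6K1/S6K2* set alone.

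Signs turned where a value was small against its error. With the Y-linked covariate the log2 fold change was 1.29 for *Ccl17* with KO and 0.23 for *Ccl2* with DKO, and the difference between sets was −0.56 for *Ccl20* in passage and −1.02 for *Ccl17* in genotype. Leaving out 1 library gave −0.24 to 0.12 for *Ccl7*, −0.83 to 0.40 for *Ccl17* and −0.22 to 1.09 for *Ccl20* with KO, and −0.28 to 0.25 for *Ccl2*, −0.12 to 0.35 for *Ccl7* and −0.12 to 1.32 for *Ccl11* with DKO. The difference between sets in passage was then −0.17 to 0.25 for *Ccl7*, −0.0066 to 0.60 for *Ccl8*, −0.79 to 0.15 for *Ccl12* and −0.61 to 0.96 for *Ccl20*, and in genotype −0.026 to 0.49 for *Ccl2* and −0.024 to 0.45 for *Ccl7*.

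Depth limits *Ccl17* throughout and *Ccl12* in DKO cells, where a library held 2 counts.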
